A study of Homo sapiens with 5 samples.

Results

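Collagens are trimeric proteins of the extracellular matrix, and each trimer is built from α chains encoded by separate genes. The collagen genes were taken as every gene of the deposited count table whose symbol has the form COL, a number, A and a number, which gave 44 of the 26485 genes. They were measured by poly(A)-selected RNA-seq in RPE1, an immortalized human retinal pigment epithelial cell line. The 5 libraries came from wild-type (WT) RPE1 cells kept for 18 h with the solvent DMSO (2 libraries), with 0.2 µM doxorubicin (2 libraries) or with 0.34 µM doxorubicin (1 library). Doxorubicin is an anthracycline that intercalates into DNA and poisons topoisomerase II. The treatment protocol in the labels states doses of another order of magnitude than the titles and the treatment field, and the latter are used here. The study asked how the drug changes chromatin contacts and gene expression, and collagen genes were not its subject.

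Fibrillar chains such as those of types I, III and V form the fibrils of connective tissue. Type IV chains assemble into the sheet-like network of basement membranes, type VII forms the fibrils that anchor an epithelium to the tissue beneath it, and type VIII makes a short-chain lattice in basement membranes such as Descemet's membrane of the eye. Newly made chains are hydroxylated, folded and glycosylated in the endoplasmic reticulum, secreted as procollagen, trimmed by proteases and crosslinked by lysyl oxidases.

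The total counts were between 23773061 and 36725345 per library. In DMSO and in 0.2 µM, 1 of the 2 library titles carries the mark rep2 and the other carries no number, and the labels do not say what the mark shares. Expression is given as CPM, a gene's counts per 1000000 counts of the library after correction by TMM factors, and calls rest on an adjusted p under 0.01 in edgeR's quasi-likelihood test of the 3 doxorubicin libraries against the 2 DMSO libraries over the 14187 genes that passed the filter on low counts. CDKN1A, the p53 target that inhibits cyclin-dependent kinases, stood at 294 and 258 CPM in DMSO and at 2975, 2366 and 3358 CPM with doxorubicin (log2 fold change 3.39, adjusted p = 0.000768, edgeR's quasi-likelihood test). MDM2, the ubiquitin ligase that p53 induces, rose by 2.19 on the log2 scale (adjusted p = 0.00246, edgeR). The markers RPE65, RLBP1, RGR and TYRP1 of mature pigment epithelium lay under 0.31 CPM in each library, while OTX2 was at 23.5 to 29.4 CPM and MITF at 29.1 to 56.7 CPM. BEST1, RDH5, PMEL and MERTK, the other markers of that list, lay between 0.20 and 5.13 CPM. BEST1, RDH5 and PMEL were higher in each treated library than in both controls, as were 24.3% of all genes tested, and were not called in edgeR. PMEL passed the filter only through the doxorubicin libraries. The keratin KRT8 was at 369 and 346 CPM in DMSO and 661, 636 and 661 CPM with doxorubicin, and KRT18 at 238 to 515 CPM. KRT19, CDH1 and EPCAM, the other epithelial markers listed with these keratins, were at most at 0.31 CPM in any library. VIM, a mesenchymal marker, was at 5796 and 5805 CPM in DMSO and 5227, 4711 and 4858 CPM with doxorubicin. Its treated libraries all lay below both controls, as in 23.4% of all genes tested. CDH2, listed with VIM, was at 306 to 523 CPM, FAP at 88.7 to 107 CPM and PDGFRB at 90.1 to 198 CPM. From the same list, ACTA2 was at 38.7 to 382 CPM and S100A4 at 0.69 to 1.78 CPM. Of these 6 markers 0 were called in edgeR. Among markers of other cell types, CD3E had 0 counts, which allows up to 0.0827 to 0.125 CPM per library, and CD14 was at most at 0.155 CPM. PTPRC, a leukocyte gene, was at 0.19 and 0.27 CPM in DMSO and 0.97 to 2.20 CPM in doxorubicin. Of the 4 endothelial markers, TEK was at 0.31 and 0.27 CPM in DMSO and 1.12, 1.00 and 1.38 CPM with doxorubicin, VWF at 0.19 and 0.20 CPM and 0.58, 0.21 and 0.66 CPM, and PECAM1 at 0.11 and 0.24 CPM and 0.27, 0.46 and 0.36 CPM. PTPRC, TEK, VWF and PECAM1 were higher in every treated library than in both controls, as were 24.3% of all genes tested. PTPRC, TEK and VWF passed the filter only through the doxorubicin libraries and were not called in edgeR's test of the pooled doxorubicin libraries. DESeq2 called PTPRC (adjusted p = 0.000957), as did an edgeR fit with the rep2 mark as a block (adjusted p = 0.00838). PECAM1 was not tested. VWF had 5 counts in each control and 5 in the 0.2 µM library titled rep2. The part of these genes in the collagen values was not tested.

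Of the 44 collagen genes, 30 passed the filter on low counts. The other 14 had at most 27 counts in any library. COL23A1, a transmembrane collagen, had 0 counts in all 5 libraries, which allows up to 3 counts in each. COL19A1, COL20A1 and COL22A1 reached 1 count, and COL6A2, COL6A5, COL6A6 and COL26A1 reached 3. COL2A1 and COL28A1 reached 7 counts, COL9A1 8, COL5A3 9, COL9A3 12 and COL5A1 27. COL1A2, COL3A1, COL9A2, COL10A1, COL15A1 and COL25A1 passed the filter only through the doxorubicin libraries, so for these 6 a difference was partly set by the filter. In bulk RNA, fewer cells with a transcript and less transcript per cell cannot be told apart.

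**Figure D1:**
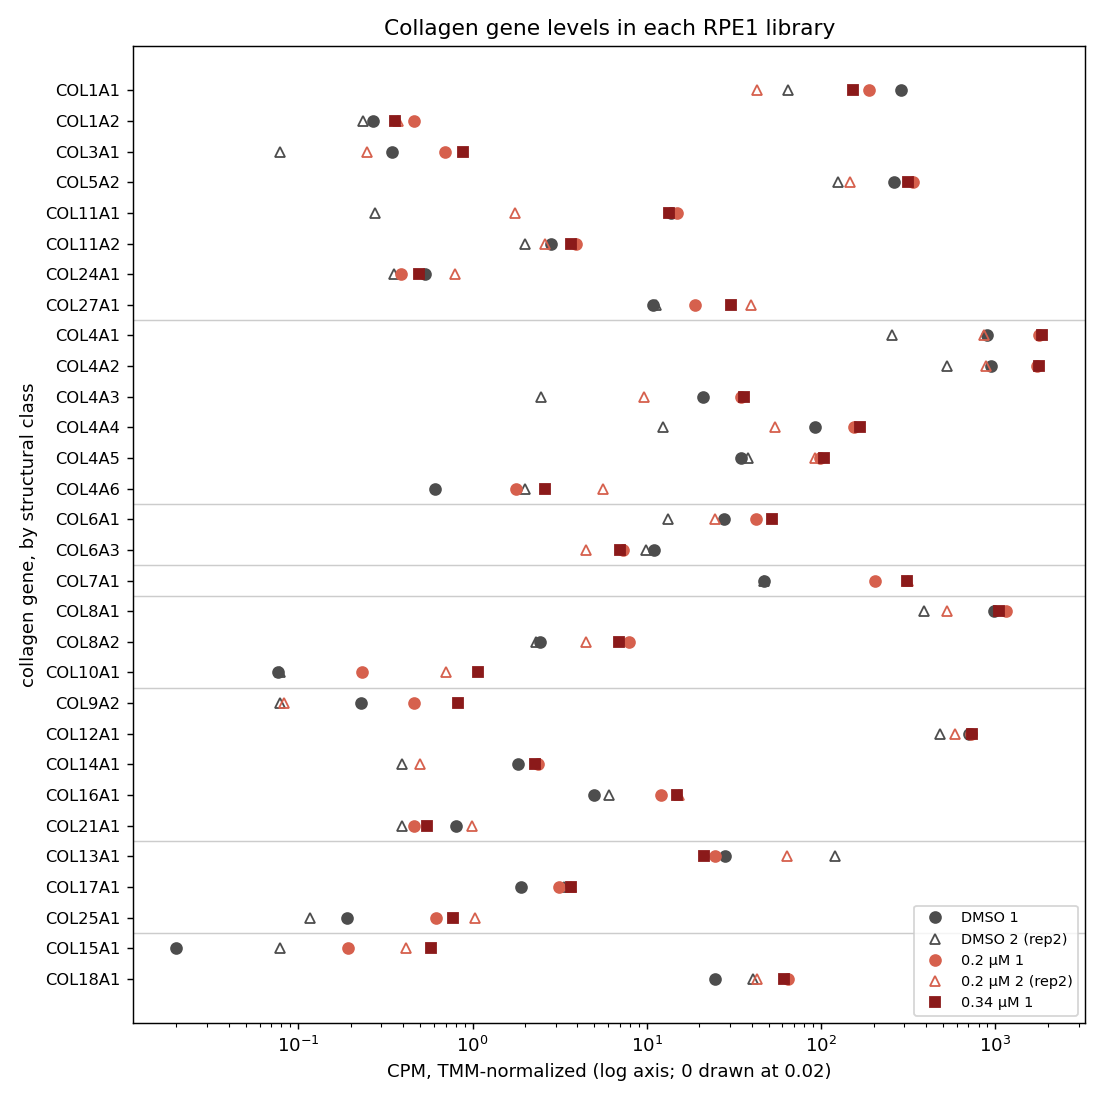
Level of each of the 30 collagen genes that passed the filter (CPM, log axis) in each library, by structural class, with a grey line between classes. Circles and the square are libraries without the rep2 mark and open triangles are those with it; COL4A1, COL4A2, COL8A1 and COL12A1 lie at 255 CPM or above in each library, and open triangles lie left of the circles for most type IV chains.

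Levels of different chains were compared as CPM per kilobase of the canonical GENCODE transcript. In DMSO the highest levels per kilobase were those of COL8A1 (124 ± 75.3 CPM per kb, SD, n = 2), COL4A2 (114) and COL4A1 (87.6), followed by COL12A1 (50.8), COL1A1 (29.7), COL5A2 (28.3) and COL13A1 (23.6). The order of neighbours within the leading 3 was not separated by the spread of the 2 libraries. With doxorubicin COL4A1 (229 ± 85.3 CPM per kb, SD, n = 3) and COL4A2 (227) led, COL8A1 was at 165 and COL12A1 at 58.0. COL7A1 went from rank 11 (5.09 ± 0.0121 CPM per kb, n = 2) to rank 6 (29.9 ± 6.78 CPM per kb, n = 3). COL4A1, COL4A2, COL8A1 and COL12A1 together took between 76.5% and 81.5% of the counts on collagen genes in each library.

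Partner chains of one trimer were often unequal. COL1A1 was detected with 274.5 to 1073 times the CPM of COL1A2 in DMSO, although the common type I trimer joins both chains. COL5A2 was at 125 and 262 CPM in DMSO, while COL5A1, the chain with which it assembles, did not pass the filter. COL6A1 was at 27.8 and 13.3 CPM in DMSO, while its partner COL6A2 did not exceed 3 counts. These ratios are of CPM and not of protein.

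Doxorubicin against DMSO called 2 of the 30 tested collagen genes higher (6.67%), against 1.29% of all genes tested, and 0 lower, against 2.73% of all genes. Both called genes encode chains of the basement membrane zone, COL7A1 and COL4A5. At an unadjusted p under 0.05 in edgeR there were 11 collagen genes higher, against 15.2% of all genes, and 1 lower, against 15.6%. Of the 11, 8 had reached the filter level in a DMSO library. In 10 of the 30 (33.3%) every doxorubicin library lay above both DMSO libraries, against 24.3% of all genes, and in 1 (COL6A3, 3.33%) every one lay below, against 23.4% of all genes. Of the 10, 4 passed the filter only through the doxorubicin libraries. Among the 24 collagen genes that reached the filter level in a DMSO library the count was 6 (25.0%), near the 22.9% of all genes that reached it. The median log2 fold change was 0.97 over the 30 genes and 0.71 over those 24, against 0.013 over all genes. Neither median carries a test, and the 3 tested genes with a negative value were COL1A1, COL6A3 and COL13A1.

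COL7A1 encodes the only chain of type VII collagen. It was at 46.9 and 47.0 CPM in DMSO and at 204 and 316 CPM in 0.2 µM and 309 CPM in 0.34 µM doxorubicin. All 3 treated libraries lay above both controls, and the controls differed by far less than the treated libraries did. The mean rose from 47.0 ± 0.112 CPM (SD, n = 2) to 276 ± 62.5 CPM (SD, n = 3), a 5.88-fold change (95% confidence interval 3.95 to 8.75; log2 fold change 2.56, SE 0.24, adjusted p = 0.00181, edgeR's quasi-likelihood test). Within the libraries without the rep2 mark the log2 difference was 2.12 at 0.2 µM and 2.72 at 0.34 µM, and within those with the mark it was 2.74. The adjusted p missed 0.01 without either DMSO library (0.0168 and 0.0221) and without the 0.2 µM library titled rep2 (0.0105), while the log2 fold change stayed between 2.45 and 2.74 (edgeR).

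COL4A5 encodes the α5 chain of type IV collagen, which joins other type IV chains in specialized basement membranes such as that of the glomerulus. Its level was 34.9 and 38.1 CPM in DMSO, 98.3 and 92.5 CPM in 0.2 µM and 104 CPM in 0.34 µM doxorubicin. The groups did not overlap, and the libraries of each condition lay close together. The change was 2.70-fold (95% confidence interval 2.12 to 3.43; log2 fold change 1.43, SE 0.14, adjusted p = 0.00229, edgeR). Leaving out 1 library at a time kept the log2 fold change between 1.36 and 1.48, and the adjusted p stayed under 0.01 only without the 0.2 µM library titled rep2 (0.00992), with 0.013, 0.0152, 0.014 and 0.016 otherwise (edgeR).

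The 6 type IV genes lie as 3 head-to-head pairs, COL4A1 with COL4A2, COL4A3 with COL4A4 and COL4A5 with COL4A6, and each pair starts in opposite directions from a shared stretch. In RefSeq on GRCh38.p14 the start sites of COL4A1 (minus strand) and COL4A2 (plus strand) are 127 bases apart on chromosome 13. Those of COL4A3 and COL4A4 are 419 bases apart on chromosome 2, and those of COL4A5 and COL4A6 380 bases apart on chromosome X. For COL4A4, on the minus strand, the distance takes the start site at 227164205. The RefSeq span of COL4A4 reaches 227164488, nearer to COL4A3. Shown are the bases between the start sites of the pair with the most counts (chr13:110307158-110307283, plus strand) and the 250 bases before the start sites of COL4A3 (chr2:227164374-227164623, plus strand), COL4A5 (chrX:108439588-108439837, plus strand) and COL7A1 (chr3:48595330-48595579, minus strand), since these chains carry the comparisons described here. Capitals mark, on either strand, the letters GGGCGG of a GC box, the pentamer of a CCAAT box, and the letters TATAAA of a TATA box.
COL4A1-COL4A2: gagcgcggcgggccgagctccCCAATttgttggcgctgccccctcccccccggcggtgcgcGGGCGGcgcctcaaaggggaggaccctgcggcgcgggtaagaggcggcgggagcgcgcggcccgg
COL4A3: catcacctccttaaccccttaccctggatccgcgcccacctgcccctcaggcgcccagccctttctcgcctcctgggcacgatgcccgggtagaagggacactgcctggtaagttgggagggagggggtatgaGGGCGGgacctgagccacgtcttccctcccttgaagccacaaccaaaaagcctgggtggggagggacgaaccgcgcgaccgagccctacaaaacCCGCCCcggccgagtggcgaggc
COL4A5: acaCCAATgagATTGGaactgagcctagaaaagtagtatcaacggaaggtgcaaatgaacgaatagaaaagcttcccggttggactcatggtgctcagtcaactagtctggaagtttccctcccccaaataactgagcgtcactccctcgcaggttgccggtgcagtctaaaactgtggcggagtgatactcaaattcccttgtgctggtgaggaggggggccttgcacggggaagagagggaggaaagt
COL7A1: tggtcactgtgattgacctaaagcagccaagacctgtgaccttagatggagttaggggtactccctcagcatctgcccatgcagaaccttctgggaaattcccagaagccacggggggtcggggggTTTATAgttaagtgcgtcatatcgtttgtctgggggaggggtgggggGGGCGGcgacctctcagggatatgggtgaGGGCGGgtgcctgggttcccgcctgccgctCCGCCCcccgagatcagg
The COL4A1-COL4A2 stretch holds 1 GGGCGG and 1 CCAAT and is 80.2% G or C, whereas the COL4A5 stretch is 51.2% G or C, with 2 CCAAT and no GGGCGG. The COL7A1 stretch has 3 matches to GGGCGG and 1 to TATAAA. Over windows from 250 bases before to 50 bases after the start site, GGGCGG occurred in 44.6% of 27305 RefSeq promoters, CCAAT in 35.7% and TATAAA in 12.0%. Of the 32 collagen genes with such a window, 23 passed the filter, with GGGCGG in 56.5%, and 9 did not, with 55.6%. The median G and C content was 65.7% in the former, 66.7% in the latter and 58.3% over all promoters. A match is a description of the letters and not a bound site.

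COL4A1 and COL4A2 encode the 2 chains of the common type IV trimer. COL4A1 stood at 890 CPM in the DMSO library without the mark and 255 CPM in that titled rep2, at 1789 and 857 CPM in the corresponding 0.2 µM libraries and at 1855 CPM in 0.34 µM. COL4A2 was at 948 and 526 CPM, 1743 and 877 CPM, and 1768 CPM in the same order. For both chains the treated rep2 library lay below the unmarked DMSO library, so the groups overlapped, although each treated library lay above the DMSO library of the same label. Without the label in the fit neither passed (COL4A1, log2 fold change 1.39, SE 0.57, adjusted p = 0.156; COL4A2, 0.99, SE 0.39, adjusted p = 0.140; edgeR). Within the unmarked libraries the log2 difference of COL4A1 was 1.01 and 1.06 for 0.2 and 0.34 µM, and within rep2 it was 1.75. The corresponding values of COL4A2 were 0.88, 0.90 and 0.74.

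With the rep2 mark as a block beside the treatment, an analysis added after the counts were seen, 5 of the 30 collagen genes were called higher (16.7%), against 4.78% of all genes, and 0 lower, against 6.12%. They were COL7A1 (adjusted p = 0.000708), COL4A5 (0.000992), COL16A1 (0.00344), COL4A1 (log2 fold change 1.33, 0.00404) and COL4A2 (0.82, 0.00465; edgeR's quasi-likelihood test). DESeq2 without the block also called 5 collagen genes higher, against 6.72% of all genes, and none lower, against 8.18%, and these were COL7A1, COL4A5, COL16A1, COL8A2 and COL27A1. COL7A1, COL4A5 and COL16A1 were thus called by both. The labels do not state that the rep2 libraries were handled together, so the block is a reading of the titles.

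**Figure D2:**
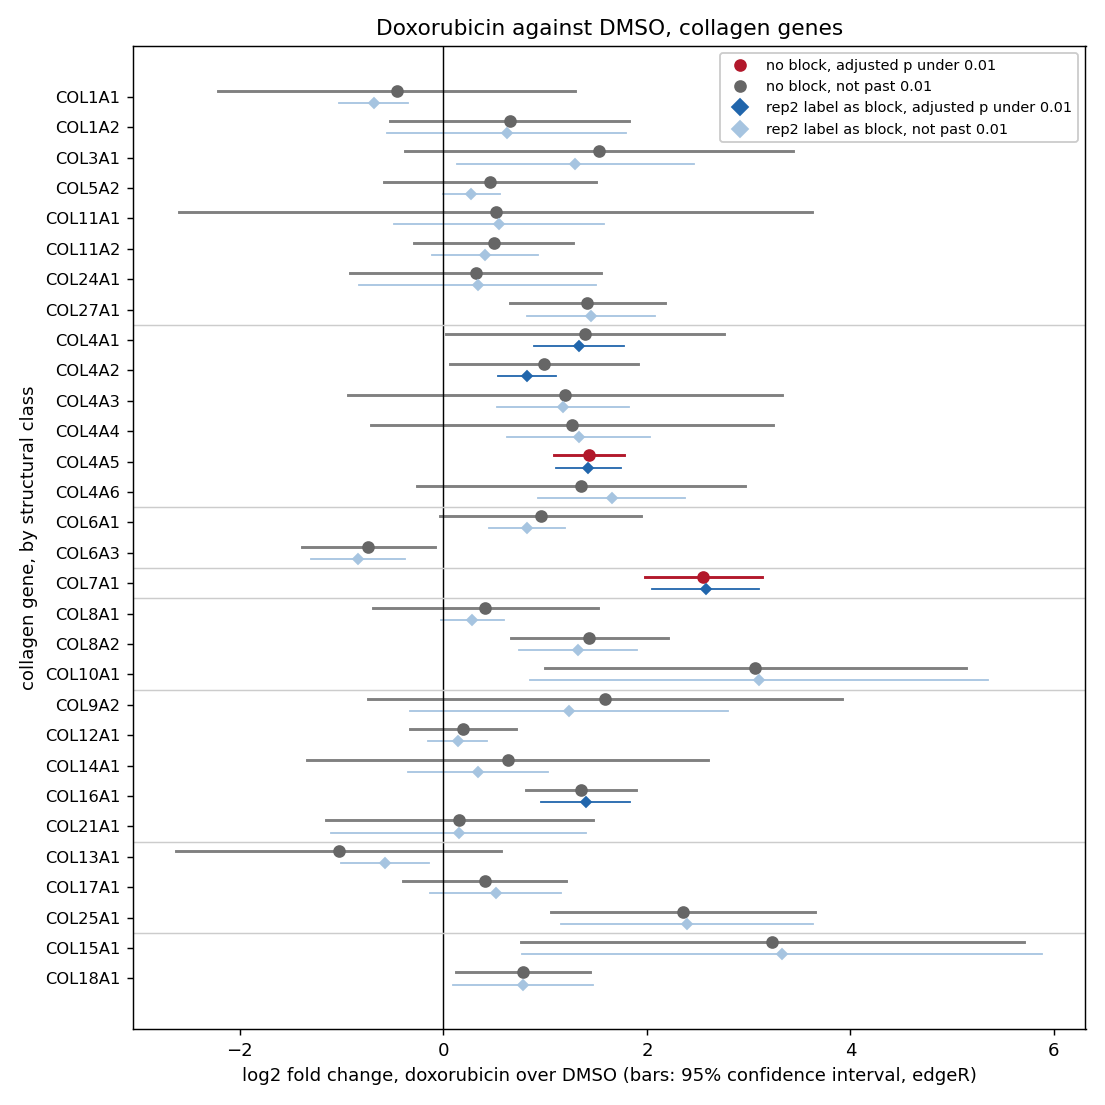
Log2 fold change of doxorubicin over DMSO for the 30 collagen genes that passed the filter, with 95% confidence intervals, from edgeR without a block (circles) and with the rep2 mark as a block (diamonds). COL7A1 and COL4A5 are called in both, and COL4A1, COL4A2 and COL16A1 are called with the block, where the intervals of the type IV chains are shorter.

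The other 3 type IV chains also had positive values that did not pass. COL4A3 was at 21.1 and 2.47 CPM in DMSO, 34.9 and 9.65 CPM in 0.2 µM and 36.1 CPM in 0.34 µM. Its partner COL4A4 was at 92.3 and 12.3 CPM, 155 and 54.6 CPM and 167 CPM. In both genes the rep2 libraries were the lowest of their condition and each treated library exceeded its DMSO counterpart (log2 fold change 1.19 and 1.27, adjusted p = 0.416 and 0.352, edgeR). COL4A6, partner of COL4A5, was at 0.61 and 2.00 CPM in DMSO and 1.78, 5.61 and 2.62 CPM with doxorubicin, with the rep2 libraries the highest (1.35, adjusted p = 0.230, edgeR). The ratio of COL4A3 to COL4A4 stayed between 0.177 and 0.228 over the 5 libraries. The ratio of COL4A1 to COL4A2 was 0.938 and 0.485 in DMSO and 1.03, 0.977 and 1.05 with doxorubicin (two-sided exact permutation p = 0.1, the smallest that 2 against 3 libraries allow), and the rep2 DMSO library stood apart in it.

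COL16A1 encodes a fibril-associated chain. Its values were 4.96 and 6.07 CPM in DMSO, 12.1 and 15.3 CPM in 0.2 µM and 15.0 CPM in 0.34 µM, with no overlap (log2 fold change 1.36, SE 0.23, adjusted p = 0.0126, edgeR). COL27A1, a fibrillar chain of cartilage, was at 10.9 and 11.4 CPM, 18.9 and 39.5 CPM, and 30.5 CPM (1.41, adjusted p = 0.0332). COL8A2, the partner of COL8A1 in type VIII collagen, was at 2.44 and 2.31 CPM, 7.85 and 4.49 CPM, and 6.94 CPM (1.44, adjusted p = 0.0335). All 3 had treated libraries above both controls and missed 0.01 in edgeR. COL18A1, whose C-terminal fragment is endostatin, was at 24.7 and 40.5 CPM in DMSO and 64.2, 43.0 and 61.1 CPM with doxorubicin (0.78, adjusted p = 0.110). Its treated rep2 library lay only just above the rep2 control.

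Several chains that were nearly undetected in DMSO were counted with doxorubicin. COL25A1, a transmembrane collagen of neurons, had 5 and 3 counts in DMSO and 16, 25 and 28 counts with doxorubicin (log2 fold change 2.35, adjusted p = 0.0357, edgeR). COL10A1, the collagen of hypertrophic cartilage, had 2 and 2 counts in DMSO and 6, 17 and 39 counts with doxorubicin (adjusted p = 0.0625). COL15A1, a multiplexin of the basement membrane zone, had 0 and 2 counts in DMSO and 5, 10 and 21 counts with doxorubicin (adjusted p = 0.0864). None of the 3 passed, and all stayed under 1.1 CPM. COL1A2, COL3A1 and COL9A2 had at most 9 counts in DMSO and at most 32 with doxorubicin. Among chondrocyte markers, HAPLN1 went from 0 CPM in both DMSO libraries to between 0.27 and 1.08 CPM with doxorubicin. It passed the filter only through the doxorubicin libraries and was not called in edgeR (adjusted p = 0.0305), while DESeq2 called it (adjusted p = 0.00212). SOX9 was at 182 and 172 CPM in DMSO and 149, 170 and 147 CPM with doxorubicin. Its treated libraries all lay below both controls, as in 23.4% of all genes tested (log2 fold change -0.19, adjusted p = 0.420, edgeR). ACAN had 0 and 0 counts in DMSO, 0 and 2 in 0.2 µM and 110 in 0.34 µM doxorubicin (3.03 CPM), the library with the most counts of COL10A1 and COL9A2. MATN1 was at most at 0.24 CPM, and the part of these markers in the collagen values was not tested.

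Chains without a call differed in direction. COL6A3, the long chain of type VI microfibrils, was at 11.0 and 9.91 CPM in DMSO and 7.31, 4.45 and 7.03 CPM with doxorubicin, each below both controls (log2 fold change -0.74, SE 0.27, adjusted p = 0.123, edgeR). COL6A1 had a value of 0.96 (adjusted p = 0.174), and the ratio of COL6A3 to COL6A1 was 0.396 and 0.746 in DMSO and 0.173, 0.180 and 0.134 with doxorubicin (two-sided exact permutation p = 0.1, the smallest possible). COL1A1 was at 287 and 64.5 CPM in DMSO, 189 and 42.7 CPM in 0.2 µM and 151 CPM in 0.34 µM. Each treated library lay below the DMSO library of the same label, with a log2 fold change of -0.46 (adjusted p = 0.719) and of -0.69 with the block (adjusted p = 0.0154, edgeR), and without the unmarked DMSO library the sign turned to 0.98. COL12A1, a fibril-associated chain, stayed between 482 and 735 CPM (0.19, 95% confidence interval -0.33 to 0.71). COL8A1 was at 977 and 390 CPM in DMSO and 1156, 530 and 1042 CPM with doxorubicin (0.41, adjusted p = 0.597). COL8A1 exceeded COL8A2 by 400 and 169 times in DMSO and by 147, 118 and 150 times with doxorubicin (two-sided exact permutation p = 0.1). Of the 24 chains that reached the filter level in DMSO, 18 (75.0%) were higher in all 3 comparisons within a label, against 31.7% of all genes that reached it, and 3 (12.5%) were lower in all 3, against 32.6%. The comparisons of 0.2 and 0.34 µM without the mark share 1 DMSO library, and comparisons within a label were not among those planned.

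The remaining tested chains were the fibrillar COL5A2 (log2 fold change 0.46), COL11A1 (0.51), COL11A2 (0.50) and COL24A1 (0.32), the fibril-associated COL14A1 (0.63) and COL21A1 (0.16) and the transmembrane COL17A1 (0.41) and COL13A1 (-1.03). Their adjusted p lay between 0.348 and 0.878 (edgeR). COL21A1 and COL24A1 never exceeded 1.00 CPM.

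Collagen genes took 43.2 and 22.5 of every 10000 counts in DMSO and 64.7, 37.7 and 66.3 with doxorubicin. The treated rep2 library lay between the controls, so the groups overlapped. The mean ratio was 1.71, which the spread between libraries did not separate from no change (two-sided exact permutation p = 0.3, smallest possible 0.1). Without the unmarked DMSO library the ratio was 2.50. The 6 type IV genes took 45.1% and 38.8% of the collagen counts in DMSO and 57.6%, 50.9% and 58.6% with doxorubicin, with no overlap (mean difference 13.8 percentage points, two-sided exact permutation p = 0.1, smallest possible). Fibrillar chains took 13.1% and 9.46% in DMSO and 8.53%, 6.31% and 7.68% with doxorubicin. Short-chain collagens took 22.3% and 18.2%, against 17.5%, 14.4% and 15.6%, also without overlap (p = 0.1 for each in the same exact permutation test). Fibril-associated chains took 16.3% and 22.7%, against 11.1%, 16.1% and 11.2%, without overlap (two-sided exact permutation p = 0.2). Type VII took 1.06% and 2.18%, against 3.08%, 8.47% and 4.60%, without overlap (two-sided exact permutation p = 0.2). Of every 10000 counts, fibrillar, short-chain and fibril-associated chains took on average 3.90, 6.86 and 6.07 in DMSO. With doxorubicin these means were 4.33, 9.05 and 6.91, so the lower shares were not lower means. All 9 classes were compared in this way, and shares of one total are not independent. An exact permutation p of 0.1 does not pass a threshold of 0.05.

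**Figure D3:**
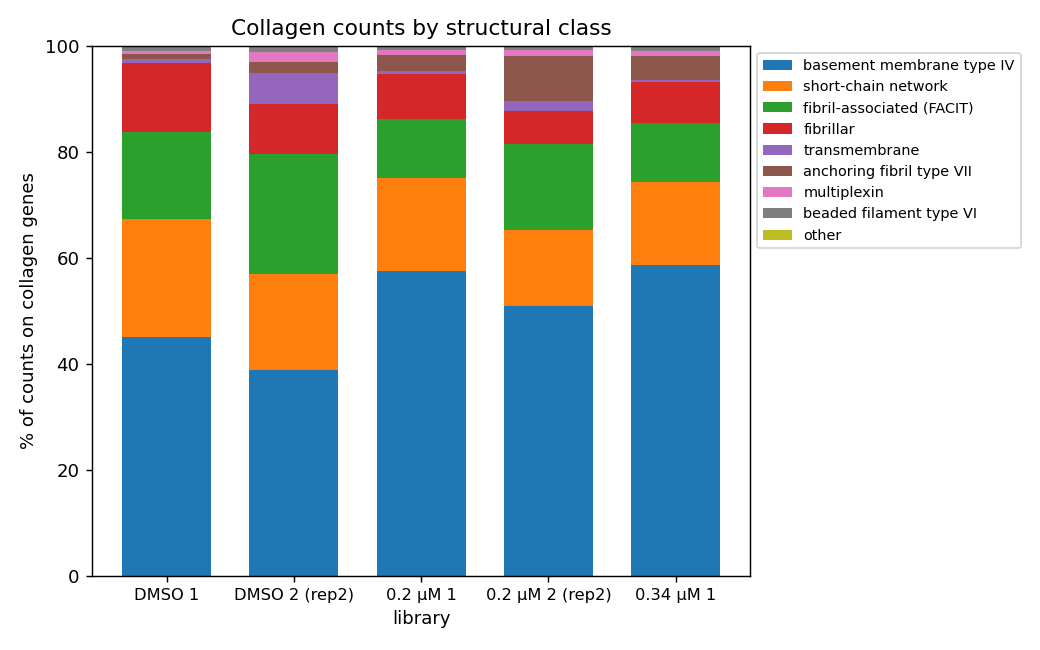
Share of the counts on collagen genes (%) taken by each structural class in each library. The type IV segment spans 38.8% to 45.1% in the DMSO libraries and 50.9% to 58.6% in the doxorubicin libraries.

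The rep2 mark went with collagen levels within a condition. With doxorubicin in the fit, libraries titled rep2 had lower levels of 5 of the 30 collagen genes (16.7%), against 1.23% of all genes, and a higher level of 1 (3.33%), against 0.296%. COL1A1 was 4.44 times as high in the unmarked as in the rep2 library in DMSO and 4.42 times in 0.2 µM (log2 difference rep2 minus unmarked -2.06, adjusted p = 0.00205, edgeR). COL5A2 (-1.11, adjusted p = 0.00651), COL8A1 (-1.17, 0.00762), COL4A3 (-2.33, 0.00915) and COL4A2 (-0.94, 0.0098) were also lower. COL13A1, a transmembrane collagen, was at 28.2 and 120 CPM in DMSO and 24.7 and 63.4 CPM in 0.2 µM, higher in both rep2 libraries (1.74, adjusted p = 0.00526, edgeR). COL11A1, a fibrillar chain, was at 13.8 and 0.27 CPM in DMSO and 14.8 and 1.75 CPM in 0.2 µM, with 13.4 CPM in 0.34 µM. Its label difference of -3.81 missed the threshold (adjusted p = 0.0103). In 25 of the 30 genes (83.3%) the rep2 difference had the same sign in DMSO and in 0.2 µM, against 58.5% of all genes, and 17 were lower in both rep2 libraries. Across the 30 genes the 2 differences had a Pearson r of 0.81, against 0.53 across all genes, which is a description over genes that share the same 4 libraries. COL7A1, COL4A5 and COL16A1 had label differences of 0.18, -0.022 and 0.22 with adjusted p of 0.631, 0.940 and 0.492 (edgeR).

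**Figure D4:**
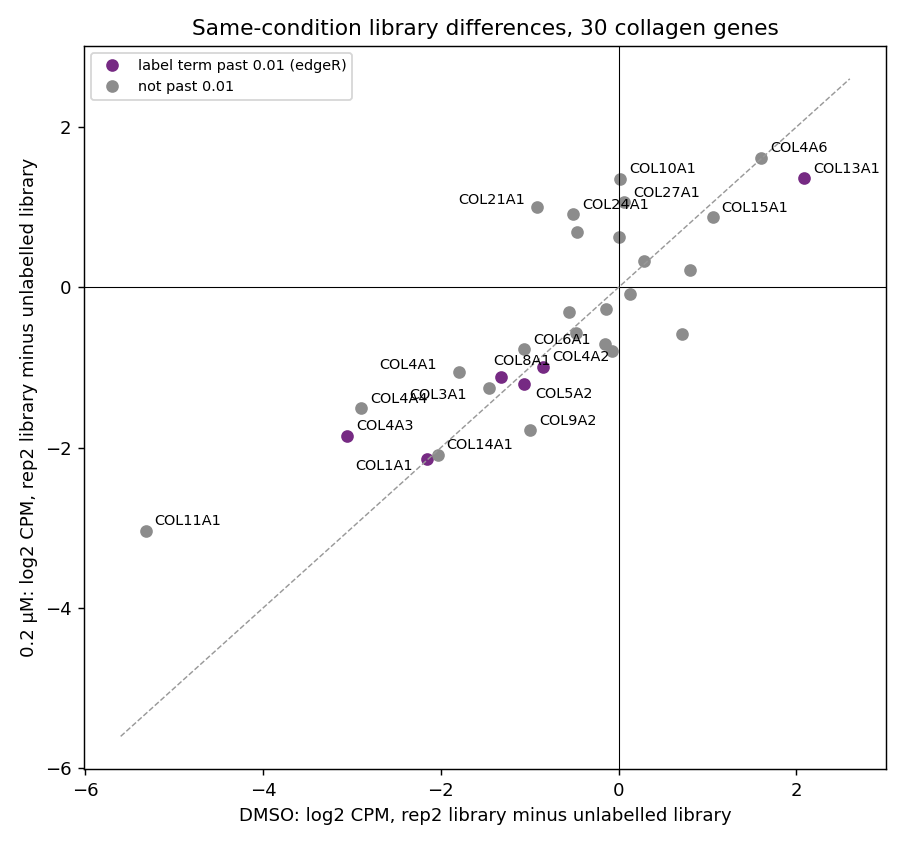
Log2 difference between the rep2 library and the unmarked library in DMSO (horizontal) and in 0.2 µM doxorubicin (vertical) for the 30 tested collagen genes, with the line of equal values dashed. Most genes lie at the lower left, where both rep2 libraries are lower, and COL13A1 and COL4A6 lie at the upper right.

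Of the other genes of collagen synthesis and binding, BGN, SPARC, ITGA11 and P4HA1 were lower in the rep2 libraries by the same label term (log2 difference -4.15, -1.34, -1.84 and -1.06, adjusted p = 0.00111, 0.00326, 0.00185 and 0.00775, edgeR). They were 2 of 10 tested fibril organisers, 1 of 8 receptors and 1 of 19 genes of modification and folding. For secretion it was 0 of 10 and for propeptide removal and crosslinking 0 of 11, against 1.23% of all genes. BGN, the proteoglycan biglycan, was at 93.3 and 3.68 CPM in DMSO and 67.4, 4.82 and 64.6 CPM with doxorubicin. SPARC, a collagen-binding matricellular protein, was at 2214 and 880.3 CPM in DMSO and 2844, 1110.1 and 2829 CPM with doxorubicin. ACTA2, smooth muscle actin, was at 287 and 38.7 CPM in DMSO and 382, 152 and 333 CPM with doxorubicin (label difference -1.90, adjusted p = 0.0331, edgeR). In SPARC and ACTA2 the rep2 library was the lower of its condition. By the label term 0 of the 6 mesenchymal markers listed, ACTA2 among them, passed 0.01. The label difference was -0.81 for PDGFRB, -0.39 for CDH2, -0.055 for VIM, 0.0066 for FAP and 0.11 for S100A4. CDH5, an endothelial cadherin, was at 0.076 and 2.19 CPM in DMSO and 0.15, 2.87 and 0.14 CPM with doxorubicin (label difference 4.40, adjusted p = 0.003, edgeR), and its part in the collagen values was not tested. BGN, ITGA11, ACTA2 and CDH5 were chosen after their values were seen.

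The drug response itself differed with the label in 3 of the 30 collagen genes (10.0%) by an interaction term, against 4.37% of all genes. The doxorubicin change was greater in the rep2 libraries for COL4A1 (by 0.71 on the log2 scale, adjusted p = 0.00865) and COL4A4 (by 1.35, adjusted p = 0.00468) and smaller for COL18A1 (by -1.26, adjusted p = 0.00499, edgeR). This fit was added after the counts were seen. Its spread comes from a single pair of libraries, the unmarked ones of 0.2 and 0.34 µM, which also differ in dose.

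Between 0.34 and 0.2 µM, 0 collagen genes were called, against 0% of all genes (edgeR, the lone 0.34 µM library being taken to vary like the others). At an unadjusted p under 0.05 there were 22 genes, of which 0 were collagen genes, and DESeq2 called 0. The log2 difference was 0.25 for COL7A1 (95% confidence interval -0.51 to 1.01) and 0.13 for COL4A5 (-0.45 to 0.71).

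Genes that make, process and bind collagen were described as 5 lists, and edgeR called 0 of their genes in either direction. The tested genes at an unadjusted p under 0.05 in edgeR, both directions together, were 1 of 19 of modification and folding and 1 of 10 of secretion. They were 4 of 11 of propeptide removal and crosslinking, 3 of 8 receptors and 1 of 10 fibril organisers. Of all genes, 15.2% were higher at this cut and a further 15.6% lower. DESeq2 called 1, 0, 3, 1 and 1 genes of the lists at its adjusted threshold, against 6.72% of all genes higher and 8.18% lower. Of 19 genes of chain modification and folding, all tested, 14 had positive and 5 negative values, with a median log2 fold change of 0.16 against 0.013 over all genes. P4HA2, a catalytic subunit of prolyl 4-hydroxylase, was at 57.0 and 39.1 CPM in DMSO and 115, 101 and 117 CPM with doxorubicin, above both controls in each library (1.21, adjusted p = 0.0126, edgeR). P4HA1, the alternative catalytic subunit, was at 151 and 69.1 CPM and at 141, 67.6 and 131 CPM (0.043, 95% confidence interval -0.94 to 1.03). PLOD2, a lysyl hydroxylase, had a value of 0.47 (adjusted p = 0.197). SERPINH1, the collagen chaperone HSP47, had 0.024 (adjusted p = 0.979). The 10 genes of procollagen secretion had a median of -0.040, with 5 positive and 5 negative.

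The 13 genes of propeptide removal and crosslinking, 11 of them tested, had a median of 0.24. LOX, a lysyl oxidase that crosslinks collagen and elastin, was at 608 and 491 CPM in DMSO and 327, 273 and 262 CPM with doxorubicin. All treated libraries lay below both controls (log2 fold change -0.93, SE 0.18, adjusted p = 0.0189, edgeR). BMP1, the procollagen C-proteinase, was at 83.7 and 80.7 CPM in DMSO and 167, 130.3 and 182 CPM with doxorubicin (0.96, adjusted p = 0.0196). TLL1, a related protease, had 2 and 2 counts in DMSO and 24, 22 and 76 with doxorubicin (adjusted p = 0.0144).

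The 8 collagen receptors and uptake genes had a median of -0.028, and DDR1, a receptor tyrosine kinase that binds collagen, was at 121 and 109 CPM in DMSO and 275, 191 and 297 CPM with doxorubicin (1.15, adjusted p = 0.0210, edgeR). Of 11 fibril organisers 10 were tested, with a median of 0.60. THBS1, thrombospondin 1, was at 5469 and 4699 CPM in DMSO and 10092, 10890 and 9563 CPM with doxorubicin (1.00, adjusted p = 0.0155). FN1, fibronectin, had 0.25 (adjusted p = 0.700) and SPARC 0.55 (adjusted p = 0.524). With the rep2 mark as a block 7 listed genes passed, P4HA2, BMP1, TLL1, DDR1, ITGA11 and THBS1 higher and LOX lower (adjusted p between 0.00226 and 0.00972, edgeR), against 4.78% of all genes higher and 6.12% lower. TLL1 passed the filter only through the doxorubicin libraries. ITGA11, an integrin subunit that binds collagen, was at 599 and 156 CPM in DMSO and 917, 268 and 910 CPM with doxorubicin.

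**Figure D5:**
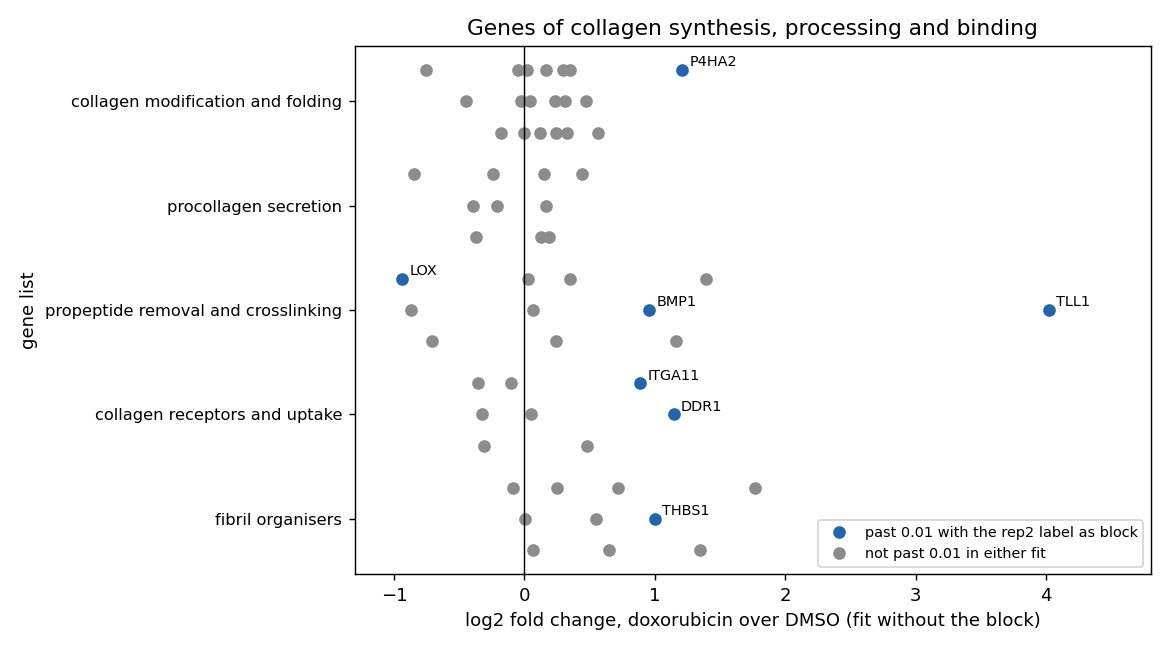
Log2 fold change of doxorubicin over DMSO from edgeR for the tested genes of 5 lists of collagen synthesis, secretion, processing, binding and fibril organisation, each point a gene. Named points pass an adjusted p of 0.01 with the rep2 mark as a block, and none passes without it.

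Collagen genes are long, and the 30 tested ones were grouped by their span in RefSeq on GRCh38.p14. The 8 genes under 50 kb had a median log2 fold change of 1.20, the 7 from 50 to 150 kb 0.78 and the 15 over 150 kb 0.99. Over all tested genes with a span the medians were 0.068, -0.076 and -0.13 for the same bins. Some collagen genes of each bin passed the filter only through the doxorubicin libraries, so the collagen medians were partly set by the filter. These were COL1A2, COL3A1 and COL9A2 in the shortest bin, COL10A1 and COL15A1 in the middle bin and COL25A1 in the longest. COL7A1 spans 31.3 kb on chromosome 3 (48564073 to 48595329) and holds MIR711, and COL4A5 spans 258 kb on chromosome X (108439838 to 108697545) and overlaps no other annotated gene. COL4A1 spans 158 kb and COL18A1 overlaps SLC19A1 and 2 antisense genes. The library kit keeps strand, but no source used here gives the strand setting of the counting. Reads of COL18A1 and of COL4A2, which also holds antisense genes, may therefore include those of the overlapping genes. The same limit covers other members that overlap annotated genes, such as COL10A1 (NT5DC1), COL4A4 (RHBDD1), COL4A3 (MFF-DT) and COL9A3 (TCFL5).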

How the data were processed

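Poly(A)-selected RNA of 5 RPE1 cultures was sequenced from stranded libraries (KAPA mRNA HyperPrep). Per the study's methods and the submitters' processing notes, reads were mapped to hg38 with STAR and counted per gene with featureCounts, and the authors deposited the raw read counts per gene for every library, without normalization. No source used here gives the tool versions, the strand setting or the handling of reads that map more than once. A further deposited file holds the authors' own comparison of DMSO with doxorubicin (mean normalized counts, fold changes and p-values) and was not used.

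From the counts, genes were filtered with filterByExpr (minimum count 10, minimum total 15), scaled by TMM, and tested with edgeR 4.0.16 in R 4.3.3 (glmQLFit and glmQLFTest, 3 doxorubicin against 2 DMSO libraries) with Benjamini-Hochberg adjustment over all genes and a threshold of 0.01, the threshold of the deposited comparison. A log2 CPM used a prior count of 2. DESeq2 1.42.0 and limma 3.58.1 (voom), other scalings, filters and thresholds, thinning, each library left out, and the rep2 mark of the titles were alternatives. Uses of that mark (block with its label term, unmarked libraries alone, interaction) were chosen after the counts were seen. Comparisons within a label were not planned either. An adjusted p that DESeq2 gave as NA was kept as NA. Shares and ratios of single values were tested by exact permutation over libraries, two-sided, where 10 assignments allow no p below 0.1. The fits were tested on simulated data.

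Every collagen gene is accounted for; tested ones are named with values and the others with their highest count. Of the other lists, members past the threshold and P4HA1, P4HA2, PLOD2, SERPINH1, LOX, FN1 and SPARC were to be named, and CDKN1A and MDM2 once; other list members named with values were chosen after their values were seen. The members and lists were chosen with earlier results of these data known. The 2 libraries of a condition differed beyond sampling noise (chi-square per degree of freedom 117 in DMSO and 75.3 in 0.2 µM) and were kept as separate samples. The study's methods call them biological replicates, and nothing in the labels says that they came from separate cultures, so p-values measure the spread between these libraries. Intervals and limits from counts cover counting error only. Positions, spans and promoter sequences are from RefSeq on GRCh38.p14, which matched 44 of 44 collagen genes, with a promoter window for 32. Lengths for CPM per kilobase are those of GENCODE canonical transcripts, for 44 genes. A further marker of another cell type is not reported here.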

Additional observations from a re-analysis of the deposited data

Results flagged for a closer look

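The doxorubicin change was set beside its counterpart in the libraries titled rep2, and 5 collagen genes were flagged. For COL4A1 the log2 change was greater in the rep2 libraries by 0.71 by an interaction term (adjusted p = 0.00865, edgeR). For COL4A4 it was greater by 1.35 (adjusted p = 0.00468, edgeR). For COL18A1 it was smaller, with a difference of -1.26 (adjusted p = 0.00499, edgeR). The interaction term called 3 of the 30 tested collagen genes (10.0%), against 4.37% of all genes. COL11A1 (difference 2.62, adjusted p = 0.0103) and COL4A3 (1.21, adjusted p = 0.0113) just missed its threshold and were not flagged (edgeR). The spread of the interaction term came from a single pair of libraries that also differ in dose. COL21A1 was lower with doxorubicin in both unmarked comparisons and higher in the rep2 comparison, with a difference of 1.98 that the interaction test did not pass (adjusted p = 0.125, edgeR). COL24A1 went the opposite ways in the same manner, with a difference of 1.41 (adjusted p = 0.315, edgeR). Neither COL21A1 nor COL24A1 exceeded 1.00 CPM in any library. Each group of libraries held fewer than 4, so no single library was tested as an outlier.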

How the results depend on the processing

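With 5 libraries, calls depended on single libraries and on the fit. Against 2 collagen genes called higher, DESeq2 and the fit with the rep2 mark as a replicate block gave 5 each, a threshold of 0.05 gave 6, and the 0.2 µM libraries, alone or as a contrast in the fit of 3 conditions, gave 1. The 3 libraries without the mark gave 14 higher and 2 lower. That fit called 3062 and 3160 of all genes and took its spread from a single pair of doxorubicin libraries of different doses. Leaving out 1 library gave 0 to 1 collagen genes higher and 0 to 0 lower. The labels give the number 2 only and leave the other libraries unnumbered, so the replicate block rests on that mark and not on stated pairs, and it moved the genes called from 183 to 678 higher and from 388 to 868 lower. Over all genes, the calls higher and lower were 935 and 1138 with DESeq2, 404 and 616 without a filter on low counts, 866 and 1061 at 0.05, 38 and 140 with the 0.2 µM libraries only, 39 and 132 with their contrast, and 2 to 71 and 47 to 183 without 1 library, the lowest of both without the DMSO library titled rep2. Of the lists, DESeq2 and the block each called 1 modification gene, 2 genes of propeptide removal and crosslinking higher and 1 lower, and 1 fibril organiser, while receptors gave 1 with DESeq2 and 2 with the block. The collagen share ratio of 1.71 was between 1.30 and 2.50 without 1 library, the highest without the unmarked DMSO library.

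Signs turned for COL1A1 (0.98 without the unmarked DMSO library) and, without the rep2 DMSO library, for COL8A1 (-0.12), COL11A1 (-0.47), COL12A1 (-0.078), COL13A1 (0.34), COL14A1 (-0.095) and COL21A1 (-0.29). COL21A1 also turned to -0.22 without the 0.2 µM rep2 library, and with the unmarked libraries alone COL21A1 was at -0.64 and COL24A1 at -0.26. Over the libraries left out, COL1A1 ranged from -1.18 to 0.98, COL8A1 from -0.12 to 1.22, COL11A1 from -0.47 to 5.17, COL12A1 from -0.078 to 0.49, COL13A1 from -1.74 to 0.34, COL14A1 from -0.095 to 2.13 and COL21A1 from -0.29 to 0.75. Under the other scalings, limma voom and thinning, no collagen gene changed its direction or its side of the threshold. The cause of these changes was not tested.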
